A study of Mus musculus with 12 samples.

Results

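The 9 genes described here encode RNA-binding proteins that act on the 3′ UTR of mRNAs: Zfp36, Zfp36l1, Zfp36l2, Elavl1, Hnrnpd, Khsrp, Tia1, Tial1 and Pum2. They were taken by name, as binders of AU-rich elements or of Pumilio sites, from a table of 51467 genes, and all 9 were among the 14033 genes that passed the filter on low counts. Their RNA was measured in mouse embryonic stem cells (ESCs) grown in serum with LIF and 2i, a pair of kinase inhibitors that hold ESCs in the naive state. The cells were either wild-type or lacked Dgcr8 (Dgcr8 KO), a gene needed to process primary microRNA transcripts, so that the KO cells make no canonical microRNAs. All cells of both genotypes received 4-thiouridine (4sU) at 500 uM for 30 min. RNA labelled during this pulse was captured as nascent RNA (4sU libraries), and RNA depleted of rRNA was sequenced as total RNA, with 3 replicates for each genotype and library type. The labels do not say whether the replicates of a genotype came from separate clones or cultures, so the p-values measure the spread between these libraries only. The study lists a Dgcr8 KO line made earlier and the V6.5 wild-type line. Genotype thus goes with cell line, and loss of Dgcr8 cannot be told apart from other differences between the lines.

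AU-rich elements are stretches of repeated AUUUA-like sequence in the 3′ UTRs of many short-lived mRNAs. Proteins of the ZFP36 family bind them and recruit the deadenylases that remove the poly(A) tail, whereas ELAVL1 (HuR) binds similar sequence and protects the transcript. HNRNPD (AUF1) and KHSRP (KSRP) also bind AU-rich elements, TIA1 and TIAL1 (TIAR) bind U-rich sequence and repress translation, and PUM2 binds the Pumilio site and promotes decay. Several of these mRNAs carry the same elements in their own 3′ UTRs, and the ZFP36 mRNAs are known as rapidly turned over.

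The recognition sites in the members' own 3′ UTRs were searched first. Matches were sought on the transcript strand of the longest annotated 3′ UTR to TATTTAT, the AU-rich core, to TGTANATA, the Pumilio site, and to AGCACTT or GCACTTA, which pair with the seed of the microRNA family most abundant in ESCs (miR-290 and miR-302, the ESCC family). All matches were counted, overlapping ones included. Across 20994 genes, 27.6% of 3′ UTRs held TATTTAT, 23.2% held TGTANATA and 17.7% held a 7-base ESCC match. Each of the 3 ZFP36 family genes held 3 copies of TATTTAT, and 1 copy of each is shown with the 10 bases on either side. Elavl1 held 8 copies, clustered near the end of its 3′ UTR and in part overlapping, and the first is shown. Capitals mark the site.
Zfp36 AU-rich site: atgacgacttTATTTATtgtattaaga
Zfp36l1 AU-rich site: tatcaaaacgTATTTATtgccaaacta
Zfp36l2 AU-rich site: gtccatactgTATTTATcgagtatgat
Elavl1 AU-rich site: tcatgaaaatTATTTATttatttattt

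These windows lie, in the mm10 build and on the minus strand, at chr7:28376952-28376978 (Zfp36), chr12:80108423-80108449 (Zfp36l1), chr17:84184867-84184893 (Zfp36l2) and chr8:4285789-4285815 (Elavl1). Among 3′ UTRs within 25% of the same length, at least as many copies were found in 1.28% for Zfp36 (774 bases), 4.00% for Zfp36l1 (1835 bases), 3.94% for Zfp36l2 (1822 bases) and 0.330% for Elavl1 (4218 bases). The shortest annotated 3′ UTRs of Zfp36l1, Elavl1 and Tia1 held no copy, so the sites of these genes depend on which 3′ UTR the transcript has. Tia1, Tial1 and Pum2 held 1 copy each, as many as 49.8% to 52.4% of 3′ UTRs of like length or more. Hnrnpd and Khsrp held none.

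Pumilio sites were found in only 2 members of the list, Pum2 itself and Tial1. Pum2 held 2 copies, and 14.3% of 3′ UTRs of like length held at least as many. Tial1 held 1, and 41.5% of 3′ UTRs of its length held at least as many. The shortest annotated 3′ UTR held no Pumilio site in either gene. The windows show 10 bases on either side of the site in capitals.
Pum2 Pumilio site, first: tttatagagaTGTATATAgaattatagt
Pum2 Pumilio site, second: tgtacagaatTGTATATActtataattg
Tial1 Pumilio site: tgataaacatTGTAAATAttgaataact

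The Pum2 windows lie on the plus strand at chr12:8750155-8750182 and chr12:8750408-8750435, and the Tial1 window on the minus strand at chr7:128441739-128441766. ESCC seed matches were present in Zfp36l2 and Elavl1, with 1 copy of AGCACTT each, and no member held GCACTTA. They are shown beside the mature sequences of miR-294-3p and miR-302b-3p as given by RefSeq (GRCm38.p6), in which capitals mark the seed, bases 2 to 8.
Zfp36l2 ESCC match: ggcccctccgAGCACTTggactcgaac
Elavl1 ESCC match: cagagattaaAGCACTTgcccagcatg
mmu-miR-294-3p: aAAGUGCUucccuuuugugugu
mmu-miR-302b-3p: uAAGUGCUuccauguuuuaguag

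The ESCC matches lie on the minus strand at chr17:84185644-84185670 in Zfp36l2 and chr8:4287046-4287072 in Elavl1. The match in Elavl1 is absent from its shortest annotated 3′ UTR. At their 3′ UTR lengths, 19.2% and 38.1% of 3′ UTRs held the same 7 bases. The other 7 members had no 7-base match to the ESCC seed in the longest annotated 3′ UTR.

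Before the members, the libraries were checked. Total counts ranged from 4593914 to 9295245 per library, and no 2 replicates agreed within sampling noise. In the libraries labelled Dgcr8 KO, the total RNA of Dgcr8 was 0.329 of the wild-type level (limma adjusted p = 6.63e-17), with 33.3 ± 1.09 CPM left (SD, n = 3; CPM are counts scaled to library size and TMM factor). The 9 pluripotency markers were detected in every group. Their summed level was 4755 to 4994 CPM in wild-type and 4709 to 4858 in Dgcr8 KO total libraries. In the nascent libraries it was 5395 to 5492 and 6147 to 6793 CPM. At a limma adjusted p under 0.05, 3 of the 9 were higher and 5 lower in Dgcr8 KO total RNA. In nascent RNA 7 were higher and 2 lower. Of 9 fibroblast or feeder markers, Col1a2, Col3a1, Postn, Dcn and Lum had at most 1 count in any library. Pdgfrb reached 81 counts and Pdgfra 51. Mean Pdgfra was 0.948 CPM in wild-type and 4.54 in Dgcr8 KO total libraries. Pdgfrb (9.02 and 5.22), Thy1 (1.73 and 0.612) and Col1a1 (1.00 and 0.355) went the other way. Of the 2 feeder markers tested, 1 was higher and 1 lower in total RNA at the same limit. In nascent RNA 0 were higher and 1 was lower. Summed levels were between 7.995 and 21.2 CPM in every library for the feeder and the 6 primitive endoderm markers. The 7 primed or germ-layer markers summed to 33.4 to 39.1 in wild-type and 41.9 to 47.7 in Dgcr8 KO total libraries. In the nascent libraries they summed to 72.4 to 77.2 and 99.96 to 105.5. They did not move together: of the 4 tested, 1 was higher and 1 lower in total RNA at the same limit. In nascent RNA 2 were higher and 2 lower. The part of these shifts in the values below was not tested.

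All levels below are CPM, and a gene was called changed at a Benjamini-Hochberg adjusted p under 0.05 in limma over all genes tested. In bulk libraries, less RNA per cell and fewer cells with the RNA cannot be told apart. Among the 9 members, nascent RNA was called higher in Dgcr8 KO for the 3 ZFP36 family genes and lower for Elavl1, Hnrnpd, Khsrp and Tial1, where 56.3% of all genes were called (28.3% higher and 28% lower). Total RNA was called higher for Zfp36l1 and lower for Elavl1, Hnrnpd, Tia1 and Pum2, where 63.9% of all genes were called (27.2% higher and 36.7% lower). The counts of 7 and 5 of 9 members are thus near the share of all genes. The same members had KO and wild-type libraries that did not overlap, 7 in nascent RNA (59% of all genes) and 5 in total RNA (68.8%). The median log2 change of the members was -0.18 in nascent and -0.10 in total RNA, against -0.02 and -0.09 over all genes. Tia1 and Pum2 were the members not called in nascent RNA, and Zfp36, Zfp36l2, Khsrp and Tial1 those not called in total RNA.

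**Figure D1:**
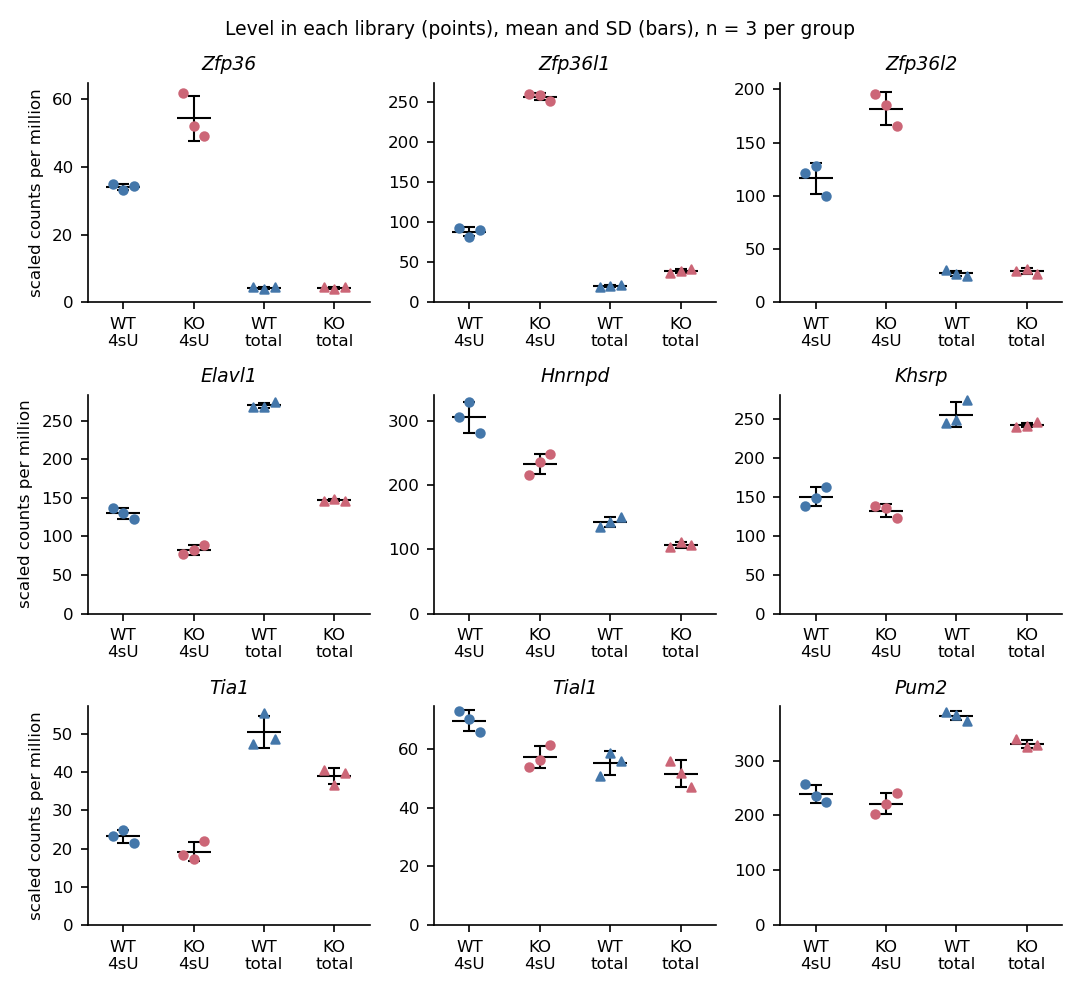
Level of each gene in each of the 12 libraries (points, CPM), with the mean and SD of 3 libraries per group (bars); circles are nascent (4sU) and triangles total libraries, blue wild-type (WT) and red Dgcr8 KO. Zfp36l1 shows the widest separation of genotypes in nascent RNA, from 81.8 to 93.0 in wild-type and from 252 to 261 in Dgcr8 KO, while total Zfp36 stays near 4 in both.

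The ZFP36 family was described first, as the members that recruit deadenylases to AU-rich mRNAs. Nascent Zfp36l1 was measured at 93.0, 81.8 and 90.2 CPM in wild-type replicates 1 to 3 and at 261, 259 and 252 CPM in Dgcr8 KO. Total Zfp36l1 was measured at 18.7, 19.997 and 20.9 CPM in wild-type and at 36.9, 38.8 and 40.8 CPM in Dgcr8 KO. The KO libraries lay above the wild-type libraries in both RNA types, with no overlap. Nascent Zfp36l1 was 2.91-fold higher in Dgcr8 KO (log2 change 1.54, SE 0.0622, limma adjusted p = 1.82e-19), and total Zfp36l1 was 1.94-fold higher (log2 change 0.95, SE 0.0950, limma adjusted p = 2.34e-10). It was the member with the largest change in both RNA types. Its nascent change passed a log2 change of 1, as did 14.8% of all genes, and no member passed it in total RNA, where 17.2% did. Zfp36l1 is on chromosome 12 (80107754 to 80113013, minus strand), where 3.13% of its 50-base words are shared with the pseudogene Zfp36l1-ps. Of its 2990 counted bases, 1672 overlap the gene model Gm26669 on the opposite strand. Reads were counted strand-specifically, and the part of opposite-strand reads was not tested.

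Zfp36l2 (chromosome 17, 84183931 to 84187947, minus strand), a paralog with the same tandem zinc fingers, had nascent levels of 121, 128 and 99.8 CPM in wild-type and 196, 185 and 165 CPM in Dgcr8 KO. Its total levels were 29.7, 26.8 and 24.1 CPM in wild-type and 29.3, 31.5 and 26.7 CPM in Dgcr8 KO. The genotypes were apart in nascent RNA and overlapped in total RNA. Nascent Zfp36l2 rose 1.57-fold (log2 change 0.65, SE 0.0773, limma adjusted p = 1.62e-08), whereas the total RNA estimate was 0.14 (95% interval -0.10 to 0.38, limma adjusted p = 0.309). This last call depended on the samples fitted: with the total libraries alone the log2 change was 0.23 (limma adjusted p = 0.0317, in a range of 0.0317 to 0.730 over 16 alternatives).

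Zfp36 (tristetraprolin), the founding member of the family and an early-response gene, was the member with the lowest total RNA. Its nascent levels were 34.9, 33.3 and 34.3 CPM in wild-type and 62.0, 52.3 and 49.1 CPM in Dgcr8 KO. Its total levels were 4.37, 3.90 and 4.42 CPM in wild-type and 4.40, 3.89 and 4.47 CPM in Dgcr8 KO, from 28 to 39 counts per library. Nascent Zfp36 was thus higher in every KO library, and total Zfp36 lay in the same range in both genotypes. The nascent rise was 1.58-fold (log2 change 0.66, SE 0.0937, limma adjusted p = 4.63e-07), and the total RNA estimate was 0.01 with an interval of -0.46 to 0.48 (limma adjusted p = 0.970). The counted 3470 bases of Zfp36 are its whole span (chromosome 7, 28376784 to 28380253, minus strand). Of these, 19.6% lie in the intron of its coding transcript, so reads from this intron are counted for Zfp36. For no other member did this share exceed 1.33%. Exon reads of unspliced RNA are counted for every member.

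Elavl1, the member that protects AU-rich mRNAs from decay, changed the other way. Nascent Elavl1 was measured at 137, 129.9 and 122.9 CPM in wild-type and 76.8, 81.8 and 89.1 CPM in Dgcr8 KO. Total Elavl1 was measured at 268, 267 and 274 CPM in wild-type and 146, 148 and 146 CPM in Dgcr8 KO. The KO libraries lay below the wild-type libraries in both, and the total libraries of a genotype were within 7 CPM of each other. Nascent Elavl1 was 0.635 of the wild-type level (log2 change -0.66, SE 0.0683, limma adjusted p = 1.17e-09), and total Elavl1 was 0.544 of it (log2 change -0.88, SE 0.0534, limma adjusted p = 2.13e-15). Elavl1 spans chromosome 8, 4285382 to 4325413, on the minus strand.

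Hnrnpd (chromosome 5, 99955935 to 99978938, minus strand), whose product AUF1 exists in several isoforms that bind AU-rich elements, was lower in Dgcr8 KO to a like extent in both RNA types. Its nascent levels were 307, 329 and 281 CPM in wild-type and 216, 235 and 248 CPM in Dgcr8 KO. Its total levels were 135, 143 and 151 CPM in wild-type and 103, 112 and 106 CPM in Dgcr8 KO. No KO library reached a wild-type library of the same type. The log2 change was -0.39 in nascent RNA (SE 0.0614, limma adjusted p = 2.90e-06) and -0.42 in total RNA (SE 0.0668, limma adjusted p = 1.80e-06).

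Khsrp (chromosome 17, 57021058 to 57031507, minus strand) encodes a KH-domain protein that recruits the exosome to AU-rich mRNAs and also binds some microRNA precursors. Its nascent levels were 139, 148 and 163 CPM in wild-type and 139, 136 and 123.2 CPM in Dgcr8 KO. Its total levels were 245, 249 and 274 CPM in wild-type and 240, 242 and 246 CPM in Dgcr8 KO. In nascent RNA the highest KO library lay just under the lowest wild-type library (138.5 against 139.0 CPM), and in total RNA the ranges overlapped. The nascent log2 change of -0.18 passed the test (SE 0.0689, limma adjusted p = 0.0273), but not without wild-type replicate 3 (log2 change -0.12, adjusted p = 0.139) or without Dgcr8 KO replicate 2 or 3 (adjusted p = 0.0593 and 0.237). Over 16 alternatives the adjusted p ranged from 0.00344 to 0.237. The total estimate was -0.08 (95% interval -0.19 to 0.04, limma adjusted p = 0.227).

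Tia1 (chromosome 6, 86404219 to 86433405, plus strand) and Tial1 (chromosome 7, 128439777 to 128461673, minus strand) encode the related stress granule proteins TIA1 and TIAR. Total Tia1 was measured at 47.5, 55.4 and 48.6 CPM in wild-type and 40.5, 36.6 and 39.7 CPM in Dgcr8 KO. Nascent Tia1 was measured at 23.2, 24.9 and 21.5 CPM in wild-type and 18.2, 17.4 and 22.1 CPM in Dgcr8 KO. The genotypes were apart in total RNA and overlapped in nascent RNA, where KO replicate 3 reached into the wild-type range. The log2 change of total Tia1 was -0.37 (SE 0.0825, limma adjusted p = 0.000199), and the nascent estimate was -0.27 (SE 0.130, limma adjusted p = 0.0784). The nascent value passed the test without KO replicate 3 (log2 change -0.36, adjusted p = 0.0460) and with RLE size factors (adjusted p = 0.0330), in a range of 0.0285 to 0.297 over 16 alternatives. Of the counted bases of Tia1, 7.85% are shared with an overlapping gene model on the same strand, Gm44790.

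Nascent Tial1 was measured at 73.0, 70.3 and 65.8 CPM in wild-type and 54.0, 56.3 and 61.5 CPM in Dgcr8 KO. Total Tial1 was measured at 50.7, 58.8 and 55.9 CPM in wild-type and 56.0, 51.8 and 46.9 CPM in Dgcr8 KO. In contrast to Tia1, Tial1 was apart in nascent RNA and overlapped in total RNA. The log2 change of nascent Tial1 was -0.28 (SE 0.0850, limma adjusted p = 0.00513), and the total estimate was -0.10 (95% interval -0.26 to 0.06, limma adjusted p = 0.289). Whether the paralogs differed from each other was not tested.

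Pum2 (chromosome 12, 8674134 to 8752581, plus strand), which encodes a Pumilio repeat protein, had the highest total CPM of the 9 genes. Its total levels were 389, 384 and 373 CPM in wild-type and 339, 325 and 328 CPM in Dgcr8 KO. Its nascent levels were 257, 235 and 224 CPM in wild-type and 202, 221 and 240 CPM in Dgcr8 KO. Total Pum2 was lower in every KO library, while the nascent ranges overlapped. The total log2 change was -0.21 (SE 0.0526, limma adjusted p = 0.000938), and the nascent estimate was -0.11 (95% interval -0.24 to 0.01, limma adjusted p = 0.114). The nascent value passed the test without wild-type replicate 3 (log2 change -0.17, adjusted p = 0.0330) and without Dgcr8 KO replicate 3 (log2 change -0.16, adjusted p = 0.0449), and with RLE size factors (adjusted p = 0.0178). The estimate was closer to 0 without wild-type replicate 1 (-0.06) and without Dgcr8 KO replicate 1 (-0.04), and the adjusted p ranged from 0.0178 to 0.634 over 16 alternatives.

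**Figure D2:**
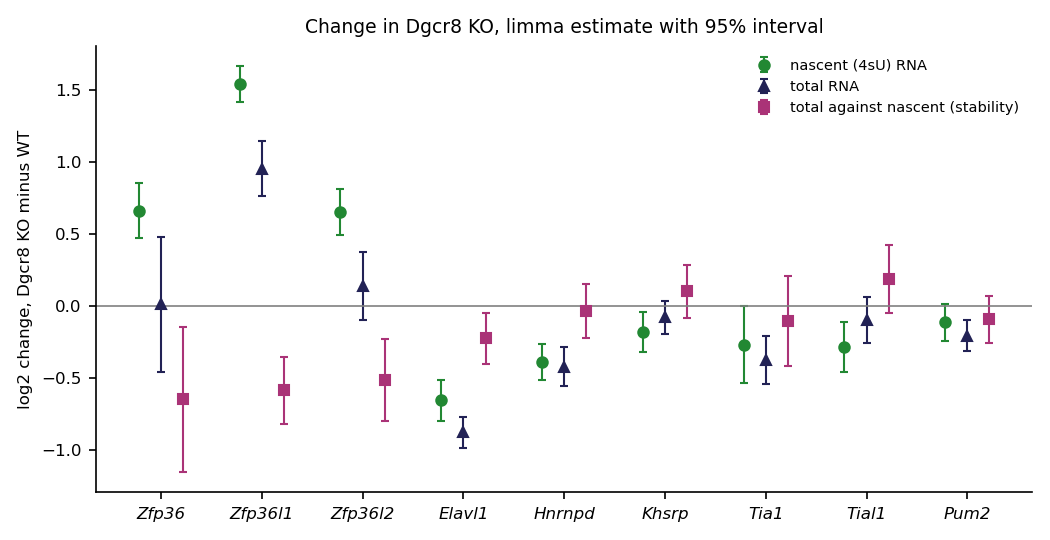
Log2 change of each gene in Dgcr8 KO against wild-type (limma estimate, bars are 95% intervals) in nascent RNA (circles), total RNA (triangles) and in the ratio of total to nascent RNA (squares, the genotype by assay interaction). The ZFP36 family genes have nascent estimates of 0.65 to 1.54 and ratio estimates of -0.65 to -0.51, while Elavl1 lies below 0 in all 3.

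To compare levels between genes, CPM were divided by the counted gene length in kb, and the members were placed among all genes tested. In wild-type total RNA the order was Khsrp (64.1 ± 4.04 CPM per kb, SD, n = 3), Pum2 (58.6 ± 1.26), Elavl1 (46.5 ± 0.638), Hnrnpd (20.96 ± 1.17), Tial1 (12.2 ± 0.902), Tia1 (11.3 ± 0.954), Zfp36l2 (7.61 ± 0.795), Zfp36l1 (6.65 ± 0.366) and Zfp36 (1.22 ± 0.0820). Neighbours in this order had no library in common range except Tial1 with Tia1 and Zfp36l2 with Zfp36l1. Khsrp exceeded 90.5% of all genes tested and Zfp36 exceeded 17.4%. In wild-type nascent RNA the members were closer, from 44.9 ± 3.52 CPM per kb for Hnrnpd to 5.17 ± 0.375 for Tia1, and Zfp36l2 (33.0 ± 4.20) and Zfp36l1 (29.5 ± 1.95) ranked above Elavl1 (22.4 ± 1.22). The 3 ZFP36 genes were thus the lowest members per length in total RNA, whereas in nascent RNA Zfp36 (9.85 ± 0.241) was again low, above Tia1 only, and its paralogs lay in the middle. The level of Zfp36 per length includes its intron.

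In Dgcr8 KO the order per length changed. Zfp36l1 was first in nascent RNA (86.1 ± 1.62 CPM per kb, above 95.6% of genes tested, from 83.7% in wild-type), followed by Zfp36l2 (51.6 ± 4.35). In total RNA Zfp36l1 moved above Tial1, Tia1 and Zfp36l2 (12.99 ± 0.659 CPM per kb), where its libraries overlapped those of Tial1 (11.4 ± 1.01). Elavl1 stayed behind Khsrp and Pum2 in total RNA at 25.3 ± 0.205 CPM per kb, and its place among all genes moved from 86.3% to 76.3%. Summed per length, the ZFP36 family had 15.5 ± 0.427 CPM per kb in wild-type and 22.5 ± 0.552 in Dgcr8 KO total RNA. The sum was 0.333 ± 0.0128 of the Elavl1 level in wild-type and 0.889 ± 0.0173 in Dgcr8 KO (SD, n = 3). Zfp36l1 made up 43.0 ± 3.54% of the sum in wild-type and 57.8 ± 2.51% in Dgcr8 KO. These sums and ratios describe RNA only, and rest on the changes already given.

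**Figure D3:**
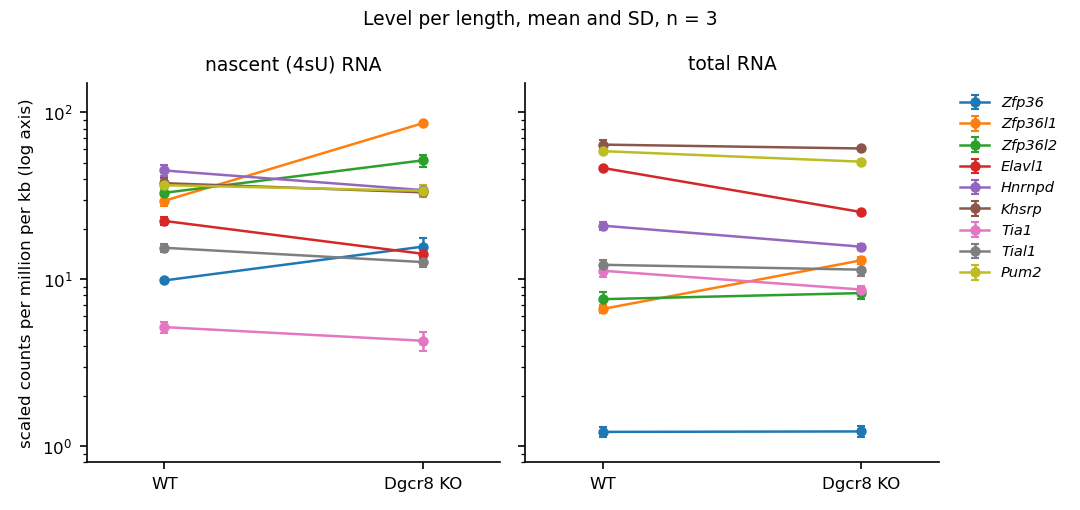
Level per length of each gene (CPM per kb of counted sequence, log axis) in wild-type (WT) and Dgcr8 KO, for nascent RNA (left) and total RNA (right), with the mean and SD of 3 libraries. Zfp36l1 goes from 29.5 in wild-type to 86.1 in Dgcr8 KO nascent RNA, above all other members, and Elavl1 falls from 46.5 to 25.3 in total RNA.

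The ratio of total to nascent RNA was then used as the measure of relative stability, as in the study. This reading assumes, as the study states, that mRNA levels within a state are steady, which was not tested. For each same-numbered 4sU and total library, the log2 ratio was taken relative to the median of all genes tested, so 0 is the ratio of the median gene. The ratio has no absolute scale, and its zero moves with the genes included: the mean of Tial1, -0.43 here, became 0.14 with no filter beyond 1 count. In wild-type cells Zfp36 was at -3.06, -3.18 and -3.03, Zfp36l1 at -2.39, -2.13 and -2.19, and Zfp36l2 at -2.11, -2.36 and -2.14. These values mean 8.50-, 4.71- and 4.60-fold less total RNA per nascent RNA than the median gene. The Zfp36 ratio includes reads from its intron, and the part of unspliced RNA in that ratio was not tested. The 3 genes lie below all but 5.76%, 12.25% and 12.52% of all genes tested. Among protein-coding genes alone, they lie below all but 0.950%, 3.16% and 3.35%.

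Hnrnpd was also below the median gene, at -1.26, -1.31 and -0.98, and Tial1 at -0.60, -0.36 and -0.32. The other members lay above it: Pum2 at 0.59 ± 0.0649, Khsrp at 0.68 ± 0.0504, Elavl1 at 0.96 ± 0.0948 and Tia1 at 1.03 ± 0.0678 (SD, n = 3). The neighbours Zfp36l1 and Zfp36l2, Pum2 and Khsrp, and Elavl1 and Tia1 overlapped, and the other neighbours in this order did not. Elavl1 was thus above 77.3% of protein-coding genes, and its longest 3′ UTR holds 8 copies of TATTTAT, in part overlapping. The ZFP36 genes with 3 copies each were near the bottom. The shortest annotated 3′ UTRs of Elavl1 and Zfp36l1 hold no copy, and which 3′ UTR the transcripts carry was not tested. In Dgcr8 KO the 6 lowest members and Tia1 kept their places, with Zfp36 at -3.65 ± 0.202, Zfp36l1 at -2.72 ± 0.110 and Zfp36l2 at -2.63 ± 0.0981.

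**Figure D4:**
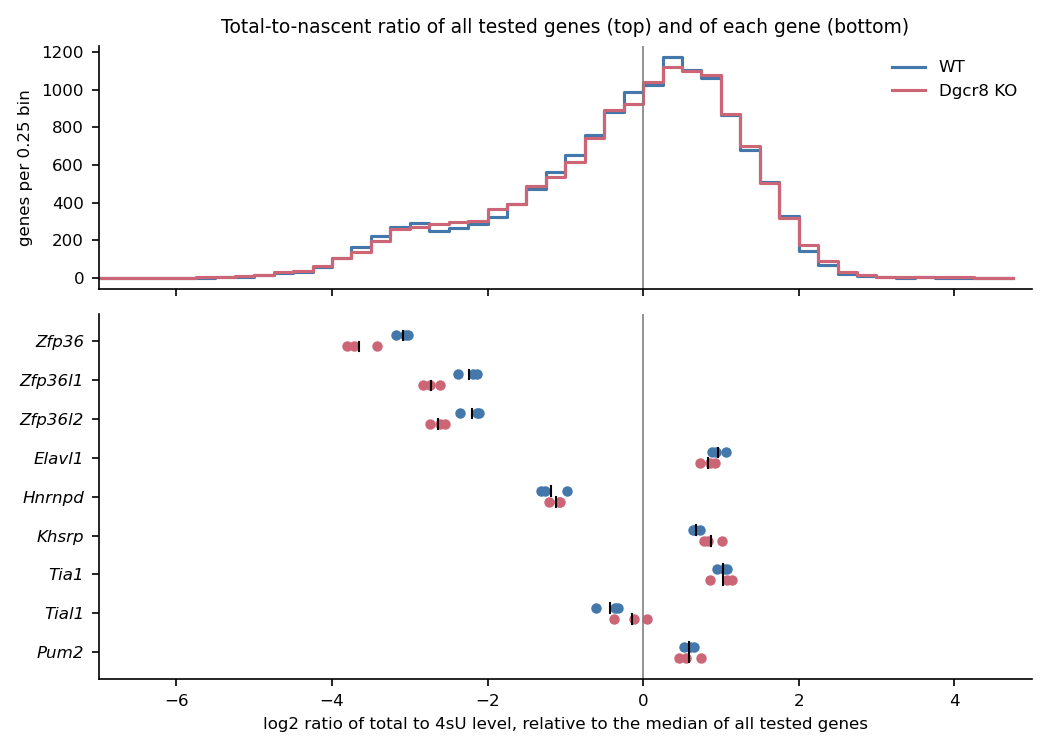
Top, distribution over 14033 genes of the log2 ratio of total to 4sU level relative to the median gene, mean of 3 replicates, in wild-type (WT, blue) and Dgcr8 KO (red), in bins of 0.25; 6 genes of each genotype lie outside the axis. Bottom, the same ratio of each gene in each replicate (points) with the mean (black bars). The ZFP36 family lies between -3.80 and -2.11, in the left part of the distribution, and shifts further left in Dgcr8 KO.

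Changes in stability between genotypes were tested with the interaction of genotype and library type in limma. By the total-to-nascent ratio Zfp36l1 and Zfp36l2 were called less stable in Dgcr8 KO, and no member was called more stable. Neither passed a log2 change of 1, as 1.76% of all genes did. The share of all genes called was 16.1%, with 5.02% higher and 11.1% lower, and the median over all genes was -0.09. The split of all calls depended on scaling: 31.1% were higher with TMM and 52.2% with RLE size factors. The ratio of Zfp36l1 fell by 0.59 (SE 0.114, limma adjusted p = 0.000373) and that of Zfp36l2 by 0.51 (SE 0.140, limma adjusted p = 0.00980). For both, all 3 KO replicates lay below all 3 wild-type replicates, as they did for 15.2% of all genes. With RLE size factors Zfp36l1 stayed called at -0.50 (limma adjusted p = 0.00233). Zfp36l2 stayed called at -0.42, close to the threshold (limma adjusted p = 0.04625). Without Dgcr8 KO replicate 1, Zfp36l2 had an adjusted p of 0.05002, just above the threshold, in a range of 0.000276 to 0.0941 over 16 alternatives.

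For Zfp36 the estimate was -0.65, but its error was large (SE 0.247, limma adjusted p = 0.0709), with 28 to 39 counts per total library behind it. The quasi-likelihood test of edgeR called it (adjusted p = 0.0421), and limma with a block for the replicate number gave an adjusted p of 0.0256, in a range of 0.0191 to 0.236 over 16 alternatives. All 3 KO replicates of Zfp36 also lay below the wild-type replicates, which made 4 members, with Khsrp, whose replicates did not overlap (31.4% of all genes). In all 3 ZFP36 genes the nascent rise was thus larger than the total RNA estimate, and the difference passed the test for Zfp36l1 and Zfp36l2.

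For the remaining members no stability change was called. The estimate for Elavl1 was -0.22 (95% interval -0.40 to -0.05, limma adjusted p = 0.0789), and those of Hnrnpd (-0.03), Tia1 (-0.10) and Pum2 (-0.09) had intervals that included 0. Tial1 had an estimate of 0.19 (95% interval -0.05 to 0.42) and Khsrp of 0.10 (95% interval -0.08 to 0.28). Leaving out single replicates gave 0.07 (without Dgcr8 KO replicate 1) to 0.30 (without Dgcr8 KO replicate 3) for Tial1 and down to 0.03 (without Dgcr8 KO replicate 3) for Khsrp. Relative to the median gene of each replicate, the 3 KO values of Khsrp (0.79, 0.83 and 1.01) nevertheless lay above its wild-type values (0.74, 0.64 and 0.66), as did 16.2% of all genes.

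Other RNA-binding proteins of 3′ UTRs were compared as a list of 54 genes, including paralogs of the members and the p38 and MK2 kinases that act on ZFP36 proteins. Of these, 50 were tested. In total RNA 13 rose and 27 fell, with a median log2 change of -0.24, where 27.2% of all genes rose and 36.7% fell and their median was -0.09. In nascent RNA 11 rose and 25 fell (median -0.17), where 28.3% of all genes rose and 28% fell (median -0.02). For stability 4 rose and 9 fell (median -0.04), where 5.02% of all genes rose and 11.1% fell (median -0.09).

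Among the paralogs, Fubp1, a relative of Khsrp, fell by 0.95 (log2) in total RNA (SE 0.0557, limma adjusted p = 8.56e-16), whereas the Khsrp estimate was -0.08, and Fubp3 fell by 0.29 (limma adjusted p = 2.08e-05). Hnrnpdl and Hnrnpab, relatives of Hnrnpd, fell by 0.17 and 0.28 (limma adjusted p = 0.00954 and 2.66e-07). Elavl2, a paralog of Elavl1, had a total rise of 0.49 (SE 0.0836, limma adjusted p = 5.17e-06), a nascent estimate of 0.02 (limma adjusted p = 0.858) and a stability rise of 0.47 (limma adjusted p = 0.00911). Zfp36l3, a paralog of the ZFP36 genes, was below the filter, with at most 2 counts in any library. Elavl3 and Elavl4, named after their values were seen, were also below the filter and untested, with means of 2.67 and 2.08 CPM in wild-type and 0.763 and 0.236 CPM in Dgcr8 KO total libraries.

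Only 3 genes of the list passed a log2 change of 1. Cpeb3, which binds cytoplasmic polyadenylation elements, rose by 1.57 in total (SE 0.172, limma adjusted p = 1.85e-09) and 1.41 in nascent RNA (limma adjusted p = 1.23e-08). Msi2, a Musashi protein, rose by 1.11 in total (SE 0.0615, limma adjusted p = 2.28e-16) and 1.14 in nascent RNA (limma adjusted p = 1.97e-11). Igf2bp3, a protein that stabilizes its target mRNAs, fell by 1.14 in total RNA (SE 0.0581, limma adjusted p = 2.68e-17) and by 0.82 in nascent RNA (limma adjusted p = 7.66e-11).

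The genes whose log2 level followed that of Zfp36l1 most closely over the 12 libraries were Trib1 (Pearson's r = 0.997), Gadd45a (r = 0.997) and Id3 (r = 0.996), where the 12 points share the split by library type and genotype. Their total RNA log2 changes were 1.14, 1.06 and 1.53, against 0.95 for Zfp36l1. Their nascent changes were 1.85, 1.38 and 2.15, against 1.54.

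Last, genes carrying the sites that these proteins recognize were described, using 11803 protein-coding genes tested with an annotated 3′ UTR. The median ratio of total to nascent RNA relative to the median of all genes tested was 0.31 ± 0.0134 in wild-type cells for 8181 genes without TATTTAT and 0.04 ± 0.0120 for 3622 genes with it (SD over 3 replicates). It fell with each step in the number of sites, to 0.12 ± 0.00352 with 1, -0.03 ± 0.0154 with 2, -0.10 ± 0.0613 with 3 and -0.39 ± 0.0111 with 4 or more. The ZFP36 genes, at -2.20 or below with 3 sites, lay far under the median of the 300 genes with 3 sites. Elavl1, at 0.96, lay above that of the 175 genes with 4 or more. The median 3′ UTR length rose over the same steps from 886 to 3640 bases, and its part in the ratio was not tested.

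In Dgcr8 KO the medians were 0.29 ± 0.0116 without and 0.09 ± 0.0260 with TATTTAT, a smaller gap than in wild-type. With 4 or more sites the KO median was -0.24 ± 0.0387, against -0.39 ± 0.0111 in wild-type. In limma the median stability change was -0.06 for genes with the site and -0.11 for genes without. The zero of these changes is set by scaling and not by the median gene, so their sign can differ from that of the ratios. Over all genes tested the median change was -0.09 with TMM and -0.0026 with RLE size factors. For genes with TATTTAT, 6.85% were called more stable and 11.2% less stable with TMM, and for genes without, 4.51% and 13.2%. The difference between the medians with and without the site was 0.05. A spread of 0.0286 between replicates covers only the genes with the site. It leaves out the genes without the site (SD 0.0134 in wild-type and 0.0116 in Dgcr8 KO), so it understates the spread of the difference. The difference was 0.03 without Dgcr8 KO replicate 1, and was not tested.

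Genes with a Pumilio site gave similar values. The wild-type median was 0.04 ± 0.0112 for 3179 genes with TGTANATA and 0.30 ± 0.0118 for 8624 genes without. In Dgcr8 KO they were 0.13 ± 0.0203 and 0.27 ± 0.00856. The median stability change in limma was -0.05 with the site and -0.12 without, where the median over all genes was -0.09. Genes with the Pumilio site also had longer 3′ UTRs (median 2234 against 926.5 bases), and 272 of them also held 3 or more copies of TATTTAT.

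**Figure D5:**
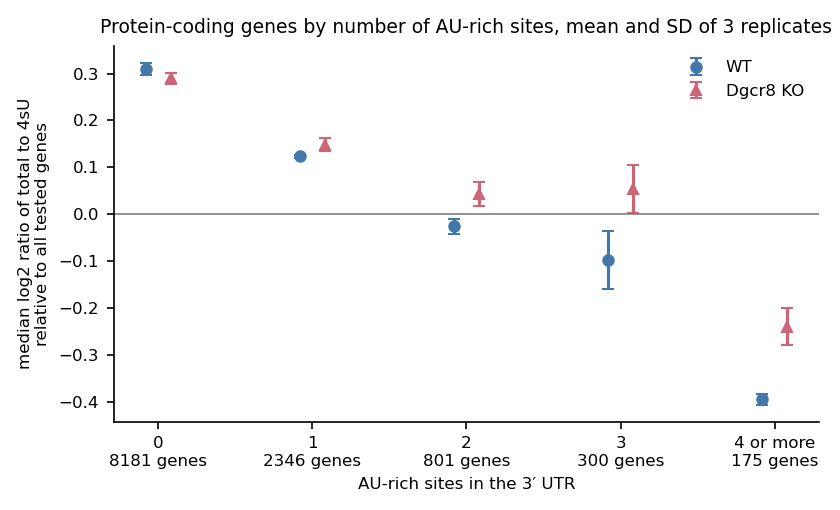
Median log2 ratio of total to 4sU level, relative to the median of all genes tested, for protein-coding genes by the number of TATTTAT sites in the longest 3′ UTR (gene numbers under the axis), with the mean and SD of 3 replicates, in wild-type (WT, circles) and Dgcr8 KO (triangles). The wild-type median goes from 0.31 with no site to -0.39 with 4 or more, and the Dgcr8 KO median from 0.29 to -0.24.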

How the data were processed

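Nascent (4sU) and total RNA of 12 libraries was analysed. The deposited table holds raw counts of reads for each gene. To make it, the authors trimmed reads with Cutadapt 1.14, mapped them uniquely with STAR 2.5.3a to mm10 and counted them with featureCounts 1.5.3, strand-specifically, over GENCODE M14 exons. Unique mapping leaves out reads shared with pseudogenes. Identifiers were matched to GENCODE M21 symbols and 3′ UTRs (51274 matched). Spike-in rows held 1 count in all, so scaling is relative.

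Genes with at least 3 CPM in at least 3 libraries were kept (14033). After TMM scaling (edgeR 4.0.16), limma 3.58.1 in R 4.3.3 (voom, which adds 0.5 to counts) was fitted with all 12 libraries in 1 model of genotype, library type and their interaction. Alternatives were edgeR, DESeq2 1.42.0, limma-trend, other scalings, filters, site definitions and replicate blocks, and leaving out each replicate. Scripts were tested on simulated counts. Total counts per library were 4593914 to 9295245, which limits lowly counted genes. Reads carried no molecular identifiers.

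The members and gene lists were chosen with earlier results of these data known. Named are the members, Dgcr8, the listed paralogs, listed genes past a log2 change of 1, and the 3 genes most correlated with Zfp36l1. A listed paralog is not reported here.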

Additional observations from a re-analysis of the deposited data

Results flagged for a closer look

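For 2 members the effect of the genotype differed between total and nascent RNA by the interaction test of limma. The Zfp36l1 interaction was -0.59 on the log2 scale (nascent change 1.54, total change 0.95), with 3 of 3 Dgcr8 KO replicates below all wild-type replicates. The Zfp36l2 interaction was -0.51 (nascent change 0.65, total estimate 0.14), also with 3 of 3 KO replicates below. Groups of 3 were not examined for outlying samples.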

How the results depend on the processing

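The counts of members called were 5 in total RNA, 7 in nascent RNA and 2 for stability. With the further limit of a log2 change over 1 they were 0, 1 and 0. For stability the count was 1 with no filter beyond 1 count, where Zfp36l2 was not called, and 1 to 2 when each replicate was left out. Leaving out replicates gave 5 in total and 6 to 8 in nascent RNA. The nascent count also moved with scaling. It was 9 with RLE factors, upper-quartile factors or DESeq2, and 6 with library size only. The stability count was 3 with edgeR, with limma-trend and with 3 CPM required in all 12 libraries. Of 432 single values, 397 kept their direction and side of the threshold. Those that changed sign were all uncalled: total Zfp36 at -0.0066 with the replicate block by number and -0.059, -0.015 and -0.0093 without wild-type replicate 2, KO replicate 1 and KO replicate 3 (single replicates left out gave up to 0.074); total Khsrp at 0.0096 with the total libraries alone; and the stability of Hnrnpd at 0.059 with DESeq2, 0.054 with RLE, 0.031 with upper-quartile factors, 0.012 with no filter, and 0.061 and 0.0089 without wild-type and KO replicate 3 (single replicates left out gave down to -0.093). The cause was not tested.

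The study split the RNA of labelled samples into a 4sU and a total part, but the labels do not say which libraries are such a pair. Deviations from the group means of same-numbered 4sU and total libraries of a genotype correlated at 0.0110 to 0.0783. Those of same-numbered wild-type and Dgcr8 KO libraries correlated at -0.0699 to 0.0699. The main model used no pairing. With the replicate block, 5, 7 and 3 members were called, and 3 for stability with a block for same-numbered libraries of a genotype, the added one being Zfp36. No other member's call changed.

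The median wild-type relative stability of the 9 members, -0.43, is that of Tial1. It was -0.70 with 3 CPM required in all 12 libraries, -0.65 relative to protein-coding genes, -0.48 to -0.34 without single replicates, and 0.14 with no filter (Tial1 likewise 0.14). The cause was not tested. Genes with minus without TATTTAT differed by -0.27 in wild-type median, by -0.41 with at least 2 sites and by -0.30 with ATTTA. For the Pumilio site the difference was -0.26, and -0.34 with at least 2 sites, -0.20 with TGTAAATA and -0.29 in the shortest 3′ UTR. The Pumilio difference in stability change was 0.07, and 0.11 with at least 2 sites. Total Zfp36, at 28 to 39 counts, is limited by depth.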
